A study of Mus musculus with 8 samples.

Results

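Neural progenitor and early neuron genes were described through 12 probe sets of 8 genes, chosen by their probe set identifiers among the 45037 probe sets of the array that are not controls. The genes were Sox2, Nes, Hes1, Hes5 and Notch1 for progenitors, Dll1 as the Notch ligand, and Dcx and Tubb3 for neurons. Their signals were measured in microdissected mouse forebrain at embryonic day 9.5 (E9.5) on 4 arrays of VEGF120 and 4 of wild type, all on the C57Bl/6 background. VEGF120 mice carry a cDNA knock-in at the VEGF-A gene, and the knocked-in allele makes VEGF120 as its only isoform, without VEGF164. Wild type carries no knock-in. The labels do not give the zygosity, the litters or whether embryos were pooled, and the replicates may be technical in part. The comparison asks whether progenitor and neuron transcripts differ in forebrain of mice with this knock-in.

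The forebrain wall at this age is a neuroepithelium of dividing progenitors in which the earliest neurons are only starting to form. Progenitors express the transcription factor Sox2 and the intermediate filament protein nestin (Nes). A cell that begins to differentiate displays Delta ligands such as Dll1, which activate Notch receptors on its neighbours; Notch then turns on the repressors Hes1 and Hes5, and these hold off neuronal differentiation. Committed neurons switch on the microtubule proteins doublecortin (Dcx) and class III β-tubulin (Tubb3).

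None of the 8 genes separated the genotypes. Of the 12 probe sets 11 lay above the brightness filter, a mean signal at or above the 40th percentile, and 0 of the 11 passed an adjusted p of 0.05 in limma (smallest adjusted p 0.709). Over all 27022 probe sets tested the share called was 0.0%, as 0 passed there too, both in limma (smallest adjusted p 0.459) and in a plain unpaired test. Without adjustment 0 of the 11 members reached a limma p under 0.05, against 9.79% of all tested probe sets (6.37% higher and 3.42% lower in VEGF120). The 4 arrays of one genotype lay beyond the 4 of the other for 0 of the 12 members, against 5.01% of those tested. The 12 include 1 dim probe set that is not among those tested. The median size of the log2 difference was 0.070 over the 11 bright members and 0.16 over all tested probe sets. The members are few and some share a gene. Whether their shares or median differ from those of all tested probe sets was not tested. In bulk tissue, fewer cells of a type and less RNA per cell cannot be told apart.

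Each array correlated with the others of its genotype at a mean r of 0.958 to 0.972; these are taken over probe sets, not over replicates. The median signal of an array was 64.7 ± 2.68 in VEGF120 and 58.1 ± 1.48 in wild type (SD, n = 4 each), and every VEGF120 array had a higher median than every wild type array, a shift of 0.12 on the log2 scale. Centring the arrays on their medians removes that shift and turns the differences of Sox2, Hes1 and the brighter Nes probe set to −0.08, −0.08 and −0.04. Levels below are deposited signals. Differences are on the scale of log2(signal + 16), VEGF120 minus wild type, with limma's standard error and 95% interval. Signals of different probe sets cannot be ranked against each other, since probes differ in affinity.

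Sox2 (chr3:34649995-34652461, GRCm38.p6), the transcription factor that maintains neural progenitors, was among the brightest probe sets, at percentile 97.9. Its signals were 4003, 3213, 3991 and 3775 in VEGF120 replicates 1 to 4, against 3271, 3620, 3862 and 3784 in wild type replicates 1 to 4. The genotypes overlapped, with VEGF120 replicate 2 lowest of all and VEGF120 replicate 1 highest. The difference was 0.04 ± 0.10 (SE; adjusted p = 0.905), with an interval of −0.17 to 0.25, or 0.889-fold to 1.19-fold. Sox2 was the steadiest member: its log2 SD was 0.15 in VEGF120 and 0.11 in wild type.

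Nes (chr3:87971093-87980451) had 2 probe sets. Probe set 1449022_at gave 1106, 1114, 728 and 1190 in VEGF120, against 1013, 1096, 861 and 881 in wild type. VEGF120 held both the lowest array, replicate 3, and the 3 highest. The difference was 0.08 ± 0.15 (SE; adjusted p = 0.863), with an interval of −0.24 to 0.41. Probe set 1453997_a_at was dimmer, at percentile 52.6, and read 58.0, 89.0, 56.2 and 61.4 in VEGF120, against 80.0, 60.5, 51.6 and 77.6 in wild type. It differed by −0.02 ± 0.22 (SE), and its arrays fell in a different order from those of the brighter probe set (Pearson r = 0.29, exact permutation p = 0.476; Spearman rho = 0.52, exact permutation p = 0.197; n = 8 arrays).

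Notch1 (chr2:26457902-26503822), the receptor, was also measured by 2 probe sets. Probe set 1418634_at read 438, 517, 267 and 592 in VEGF120, against 598, 531, 338 and 408 in wild type. Its arrays spanned 2.24-fold, and the genotypes overlapped over most of that span. The difference was −0.07 ± 0.23 (SE; adjusted p = 0.932), with an interval of −0.55 to 0.42. Probe set 1418633_at read 131, 170, 120 and 174 in VEGF120, against 146, 180, 140 and 161 in wild type. The difference there was −0.08 ± 0.16 (SE; adjusted p = 0.889), so both probe sets gave about the same value.

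Dll1 (chr17:15367354-15376932), the ligand that committed cells present to Notch, read 672, 671, 461 and 569 in VEGF120, against 673, 688, 606 and 522 in wild type. Only VEGF120 replicate 3 lay below the wild type range, and no VEGF120 array lay above it. The difference was −0.07 ± 0.14 (SE; adjusted p = 0.873), with an interval of −0.38 to 0.23, or 0.771-fold to 1.17-fold.

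The Notch effectors Hes1 and Hes5, both basic helix-loop-helix repressors, overlapped between the genotypes. Hes5 (chr4:154960626-154962372) read 657, 783, 470 and 621 in VEGF120, against 724, 745, 624 and 453 in wild type. One array of each genotype, VEGF120 replicate 3 and wild type replicate 4, was low. The difference was −0.01 ± 0.17 (SE; adjusted p = 0.994), with an interval of −0.38 to 0.37, or 0.768-fold to 1.29-fold. Hes1 (chr16:30065357-30067796) read 629, 412, 436 and 456 in VEGF120, against 437, 401, 470 and 551 in wild type. Several arrays stood at opposite ends for the 2 genes: wild type replicate 4 was the highest wild type array for Hes1 and the lowest for Hes5, and wild type replicate 2 and VEGF120 replicate 2 were the lowest of their genotype for Hes1 and the highest for Hes5. Hes1 differed by 0.04 ± 0.15 (SE; adjusted p = 0.936), with an interval of −0.28 to 0.36.

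Tubb3 (chr8:123411553-123422015), the tubulin that marks young neurons, read 518, 649, 337 and 581 in VEGF120, against 521, 788, 481 and 333 in wild type. The lowest arrays of the genotypes were close, wild type replicate 2 was the highest, and all 8 arrays spanned 2.37-fold. The difference was −0.00083 ± 0.23 (SE; adjusted p = 1.00), with an interval of −0.51 to 0.50, or 0.705-fold to 1.42-fold. Changes within those limits are compatible with these arrays, and the smallest change that 4 arrays a genotype can detect was not computed.

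Dcx (chrX:143855842-143933396), which binds and stabilises microtubules in migrating neurons, had 3 probe sets whose differences did not share a sign. Probe set 1418141_at, the brightest of them, read 109, 131, 42.4 and 114 in VEGF120, against 90.0, 183, 97.8 and 88.8 in wild type. Its extremes were 1 array of each genotype, VEGF120 replicate 3 at the bottom and wild type replicate 2 at the top. It differed by −0.21 ± 0.30 (SE; adjusted p = 0.819), and by 0.09 without VEGF120 replicate 3. Probe set 1418139_at read 114, 122, 88.3 and 120 in VEGF120, against 92.6, 131, 109 and 40.5 in wild type, and differed by 0.29 ± 0.26 (SE; adjusted p = 0.709). That value rested on wild type replicate 4, and without it the difference was 0.0053. Probe set 1418140_at lay below the brightness filter, at percentile 35.3, and read 27.2, 37.5, 10.5 and 22.0 in VEGF120, against 44.9, 48.6, 38.1 and 35.4 in wild type. VEGF120 was lower there on 3 of 4 arrays than any wild type array, and replicate 2 overlapped. The difference, fitted without the filter, was −0.56 ± 0.28 (SE), with an interval of −1.17 to 0.06 and a two-sided exact permutation p of 0.0571, where 4 against 4 can give 0.0286 at the smallest. Had 1 been added before the logarithm, not 16, it would be −0.87, so its size depends on what is added, and without VEGF120 replicate 3 it was −0.37. It had an unadjusted p under 0.05 in 5 of the 19 alternative settings. Of the brighter probe sets of Dcx, 1418141_at differed in the same direction and 1418139_at in the opposite one; whether the 3 differ from each other was not tested.

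**Figure D1:**
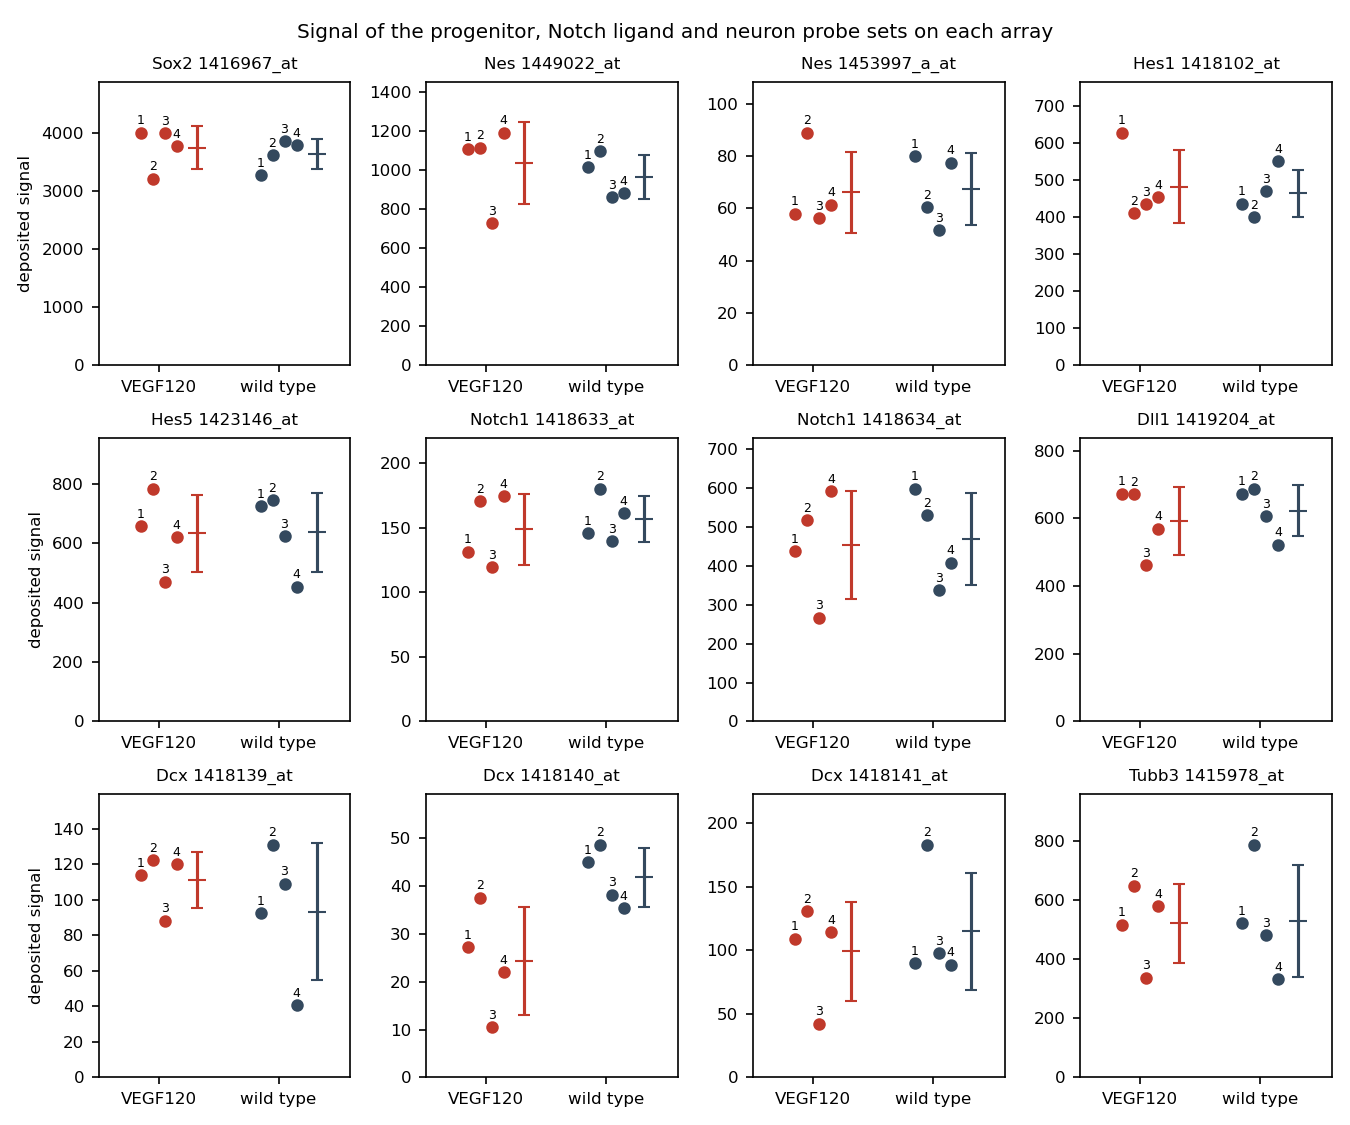
Deposited signal of each of the 12 probe sets on each array, with VEGF120 at the left and wild type at the right of every panel; numbers are replicates, and the bar beside each group is its mean ± SD (n = 4). The genotypes overlap in every panel, and VEGF120 replicate 3 is the lowest VEGF120 array in 10 of the 12.

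**Figure D2:**
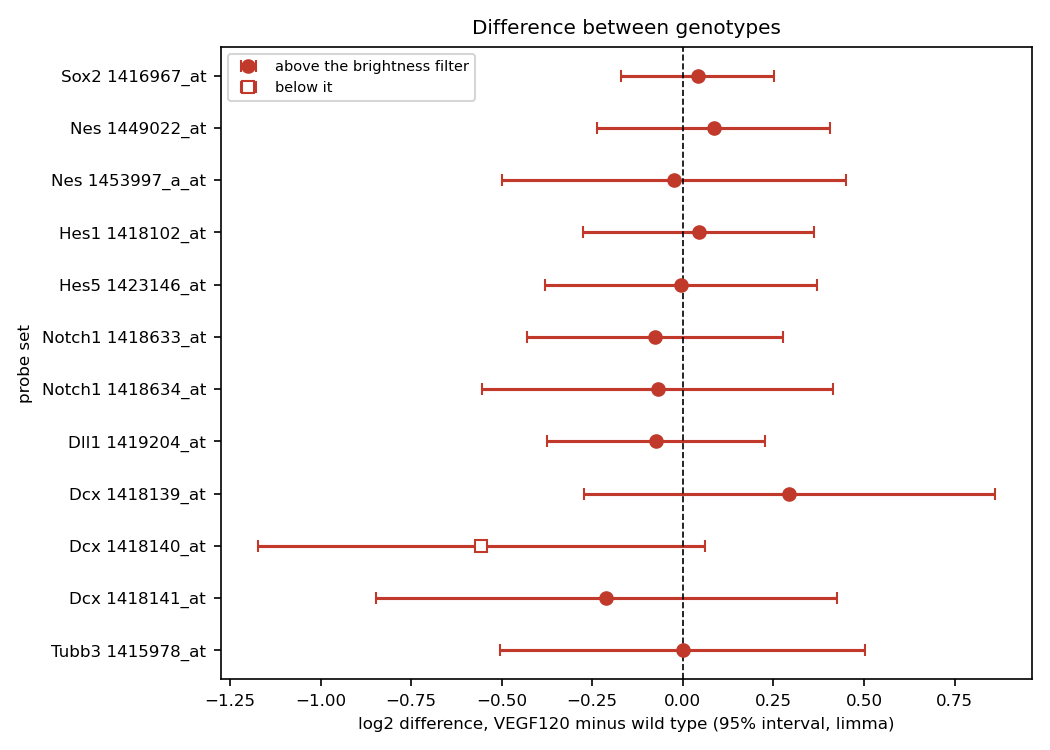
Log2 difference between VEGF120 and wild type for each probe set (horizontal axis), with its 95% interval from limma; the open square is the dim Dcx probe set. Every interval includes 0, and the narrowest is that of Sox2, from −0.17 to 0.25.

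Progenitor and neuron genes were next set side by side on each array. The mean over the brightest probe sets of Sox2, Nes, Hes1, Hes5 and Notch1 was 9.79 ± 0.21 in VEGF120 and 9.77 ± 0.10 in wild type (log2 signal, SD, n = 4 each), or 0.02 apart. The mean of Dcx and Tubb3 was 7.90 ± 0.50 in VEGF120 and 8.004 ± 0.45 in wild type, a difference of −0.11. Neither mean separated the genotypes, and their arrays overlapped. The neuron mean minus the progenitor mean differed by −0.12 between the genotypes, with SDs of 0.31 in VEGF120 and 0.39 in wild type, and its arrays overlapped as well. Without VEGF120 replicate 3 the neuron difference was 0.14, and without wild type replicate 2 it was 0.11. Over the 8 arrays Sox2 and Hes1 each had r below 0 with Nes, Hes5 and Notch1, though none of these correlations passed adjustment. The progenitor mean may thus combine genes that vary in opposite ways. No p is given for these means, because the genes were chosen with results of these data known.

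Arrays of one genotype differed among themselves in a shared way. VEGF120 replicate 3 had the lowest signal of the VEGF120 arrays for 10 of the 12 probe sets, all but those of Sox2 and Hes1, whereas it was the lowest for 23.6% of all tested probe sets. In wild type, replicate 4 was lowest for 6 of the 12, those of Hes5, Dll1, Dcx and Tubb3, against 24.2% of all tested. Wild type replicate 2 was highest for 8 of the 12 (25.8% of all tested), and VEGF120 replicate 2 for 6 of the 12 (25.6%). The 12 probe sets are of 8 genes, with 3 for Dcx, so they are not separate counts. These arrays were also named after seeing the data. VEGF120 replicate 3 had a median signal of 63.7, within the range of 62.3 to 68.5 over the VEGF120 arrays. Its β-actin log2 ratio of 3′ to 5′ control signal, a measure of RNA integrity, was 0.41, within 0.35 to 0.69 in that genotype. Wild type replicate 4 had the lowest such ratios of its genotype, 0.30 for β-actin and −0.37 for Gapdh. The highest ratios of all arrays were those of VEGF120 replicate 4, at 0.69 and −0.04. That array was the lowest of its genotype for 0 of the 12 probe sets. The part of these ratios in the signals was not tested.

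**Figure D3:**
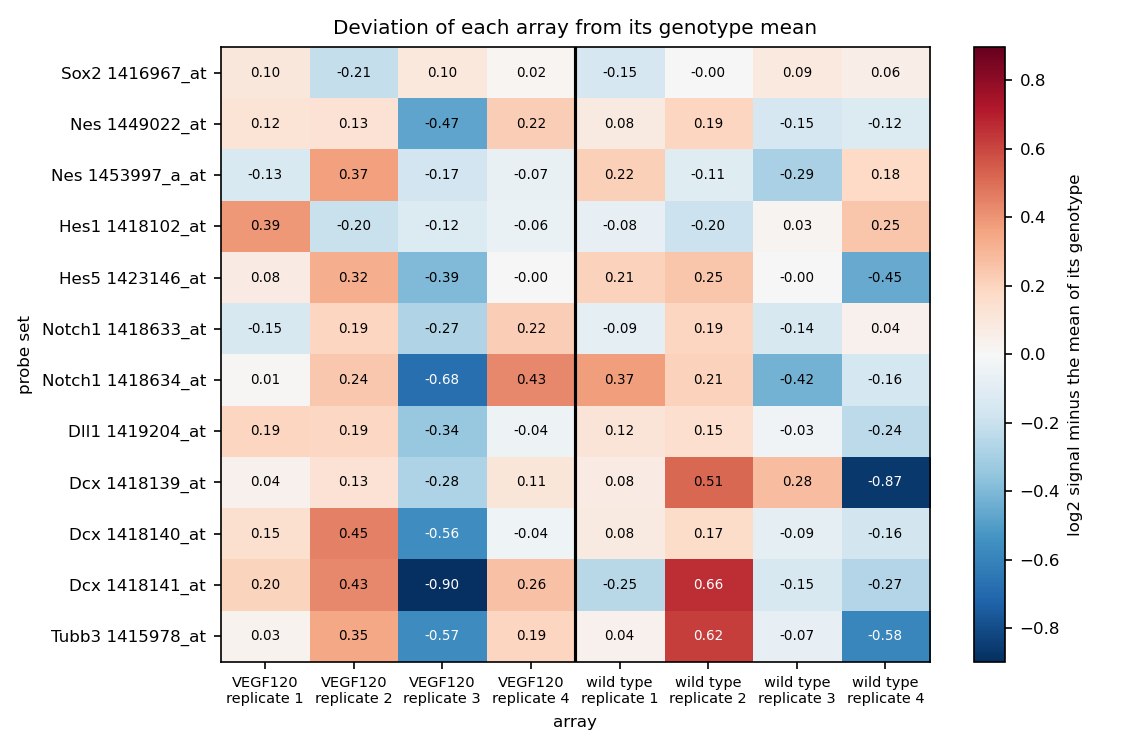
Log2 signal minus the mean of its genotype for each probe set (rows) and array (columns, VEGF120 left of the line, wild type right); blue is below the mean, red above. VEGF120 replicate 3 is the lowest VEGF120 array in 10 of the 12 rows, and wild type replicate 4 is low for Hes5, Dll1, Dcx and Tubb3 but not for Sox2 or Hes1.

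Over the 8 arrays the signals of some Notch and neuron genes varied together, but not those of Hes1. Of 33 correlations computed, 28 between genes and 5 between probe sets of one gene, 4 had a Pearson p under 0.05 after Benjamini-Hochberg adjustment and 1 a Spearman p. Hes5 and Dll1 had r = 0.92 (exact permutation p = 0.00183, adjusted 0.0350) and rho = 0.83 (exact permutation p = 0.0154, adjusted 0.127). Hes5 and Tubb3 had r = 0.91 (exact permutation p = 0.0033, adjusted 0.0350) and rho = 0.83 (exact permutation p = 0.0154, adjusted 0.127). Dcx and Tubb3 had r = 0.87 (exact permutation p = 0.0028, adjusted 0.0350) and rho = 0.90 (exact permutation p = 0.00456, adjusted 0.0753). Nes and Notch1 had r = 0.89 (exact permutation p = 0.00424, adjusted 0.0350) and rho = 0.69 (exact permutation p = 0.0694, adjusted 0.187). With the genotype means taken out the 4 values of r were 0.94, 0.91, 0.89 and 0.93. Without the 2 arrays farthest from the median of the first gene, r was 0.79 for Hes5 and Dll1 (exact permutation p = 0.0514), 0.64 for Hes5 and Tubb3 (exact permutation p = 0.176), 0.79 for Dcx and Tubb3 (exact permutation p = 0.050) and 0.57 for Nes and Notch1 (exact permutation p = 0.242). None of these had a p under 0.05, so the relations were not shown to hold without the arrays left out, with VEGF120 replicate 3 among them for each pair. Leaving out the farthest arrays also narrows the range, which by itself lowers r, and leaves 6 arrays. Each genotype has too few arrays for a correlation of its own.

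Hes1 had r below 0 with each of these genes, from −0.43 with Tubb3 (exact permutation p = 0.275, adjusted 0.379; rho = −0.64) to −0.01 with Nes (exact permutation p = 0.974), and 0 of them passed. Its r with Hes5 was −0.38 (exact permutation p = 0.361, adjusted 0.441; rho = −0.55, exact permutation p = 0.171). Sox2 had values of r below 0 too. Its r with Hes5 was −0.66 (exact permutation p = 0.0656, adjusted 0.12; rho = −0.62, exact permutation p = 0.115), and with Tubb3 −0.49 (exact permutation p = 0.213, adjusted 0.319; rho = −0.67, exact permutation p = 0.0831). Neither passed, and its r was above 0 with Hes1 alone, at 0.56 (exact permutation p = 0.117; rho = 0.64, exact permutation p = 0.0962). Among probe sets of one gene, 1418139_at and 1418141_at of Dcx had rho = 0.98 (exact permutation p = 0.000397, adjusted 0.0131) but r = 0.46 (exact permutation p = 0.227, adjusted 0.326). Their order of arrays was nearly the same, and 2 arrays set the low r: without VEGF120 replicate 3 and wild type replicate 4, r was 0.86 (exact permutation p = 0.0306).

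**Figure D4:**
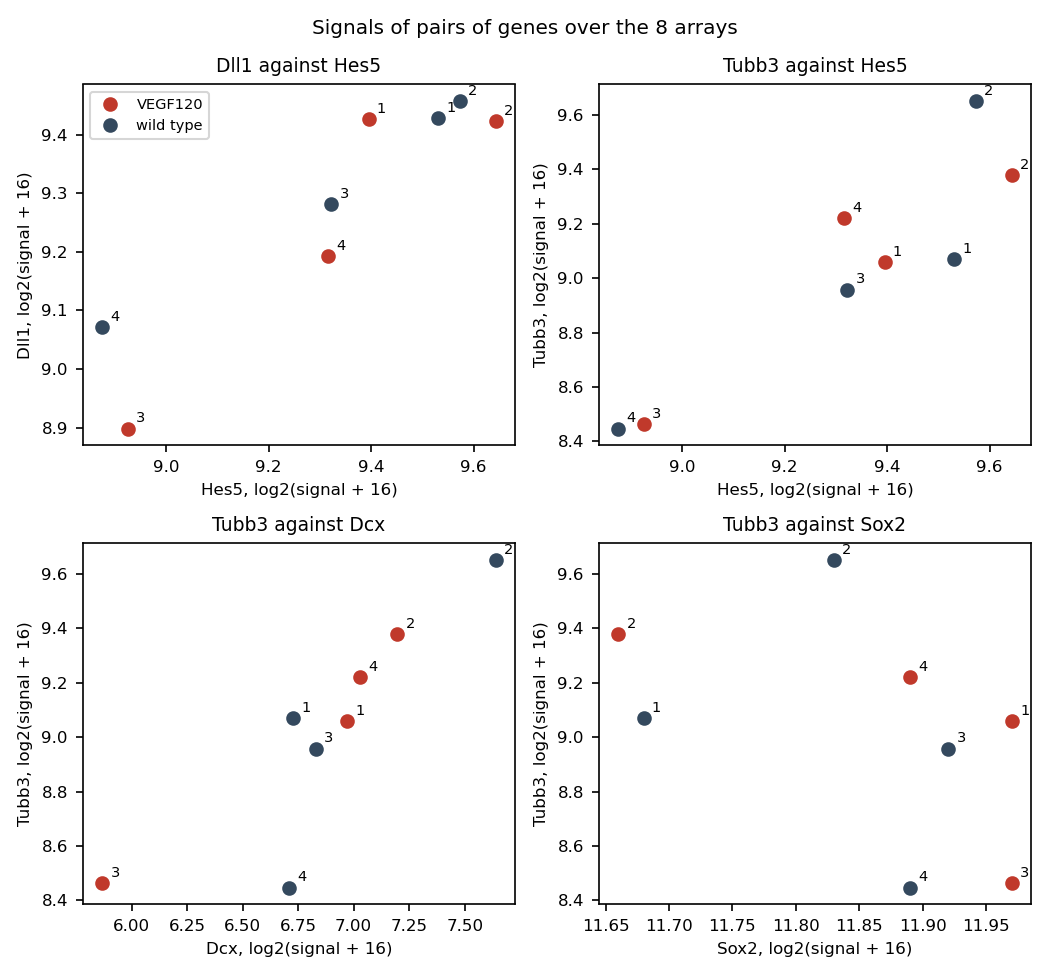
Signal of one gene against another over the 8 arrays, both axes as log2(signal + 16), by the brightest probe set of each gene; numbers are replicates. In the panels of Hes5 with Dll1 and with Tubb3, VEGF120 replicate 3 and wild type replicate 4 sit together at the low end, and in the panel of Sox2 both are low for Tubb3, with VEGF120 replicate 3 high for Sox2 and wild type replicate 4 near its middle.

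The promoters of Hes5, Dll1 and Tubb3 are shown because their signals gave the closest correlations with Hes5. Each line holds the 250 bases before the transcription start, 5′ to 3′ on the gene's strand, from RefSeq (GRCm38.p6); the start used for Hes5 lies inside the gene span given above. Capitals mark GTGGGAA or its reverse complement TTCCCAC, bound by the Notch effector RBPJ, and CATTGT or its reverse complement ACAATG, letters bound by Sox factors; no 2 matches overlap.
Hes5 chr4:154960673-154960922, plus strand: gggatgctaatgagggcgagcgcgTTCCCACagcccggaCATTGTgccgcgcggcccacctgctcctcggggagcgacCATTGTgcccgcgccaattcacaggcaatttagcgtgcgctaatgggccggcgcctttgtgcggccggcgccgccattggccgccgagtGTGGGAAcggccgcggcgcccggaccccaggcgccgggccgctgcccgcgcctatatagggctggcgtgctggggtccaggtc
Dll1 chr17:15376933-15377182, minus strand: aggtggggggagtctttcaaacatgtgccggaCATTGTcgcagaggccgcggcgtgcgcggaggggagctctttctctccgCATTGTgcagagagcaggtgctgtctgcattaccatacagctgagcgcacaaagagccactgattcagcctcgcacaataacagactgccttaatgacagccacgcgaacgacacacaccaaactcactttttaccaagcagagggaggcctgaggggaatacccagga
Tubb3 chr8:123411303-123411552, plus strand: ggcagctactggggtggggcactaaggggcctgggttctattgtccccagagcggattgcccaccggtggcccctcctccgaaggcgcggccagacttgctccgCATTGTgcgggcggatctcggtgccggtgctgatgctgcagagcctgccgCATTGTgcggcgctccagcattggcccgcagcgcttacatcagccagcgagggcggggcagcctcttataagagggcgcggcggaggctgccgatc
Hes5 held GTGGGAA in 2 places, once on each strand, and 0.161% of 32851 promoter windows of the same length hold 2 or more matches in any orientation; 5.42% hold at least 1. CATTGT stood in 2 places in each of the 3 windows, against 0.834% of all windows with 2 or more and 10.7% with at least 1. The table has 9 windows for 7 of the 8 genes, and the other 6 windows, of Sox2, Nes, Notch1, Dcx and a second start of Dll1, held neither. Both sets of letters were chosen after these promoters had been read, so the counts describe them and test nothing, and a match is not a bound site.

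Other genes of these pathways could be named only where the authors' deposited table names them. None of the 12 probe sets is among its 330, which were selected by unadjusted p-values and a fold of at least 1.5 between these genotypes. Its per-array columns match no sample label, but it belongs to the same series, so its directions are not taken as independent evidence. Of 36 other Notch pathway genes 2 were named, and both had an unadjusted limma p under 0.05 and 0 an adjusted one. Over all tested probe sets 9.79% had such an unadjusted p. These 2 have names here because the authors' table had selected them by p and fold, so the count is no result about the pathway. Dlk1, a Notch-related membrane protein, was at 11.83 ± 0.40 in VEGF120 and 10.98 ± 0.39 in wild type (log2 signal, SD, n = 4 each), and differed by 0.84 ± 0.20 (SE; adjusted p = 0.459). Jag2, a ligand of the Jagged class, was at 6.67 ± 0.21 in VEGF120 and 6.14 ± 0.34 in wild type, a difference of 0.53 ± 0.23 (SE; adjusted p = 0.498). Dll1, the Delta ligand measured above, had −0.07 ± 0.14.

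Among 32 other early neuron genes 1 was named. Map1b, a microtubule-associated protein of growing axons, was at 7.95 ± 0.55 in VEGF120 and 8.66 ± 0.34 in wild type, a difference of −0.71 ± 0.24 (SE; limma unadjusted p = 0.0115, adjusted p = 0.478). Map1b has a name here because the authors' table had selected it by p and fold, so its unadjusted p is not independent evidence. Over all tested probe sets 9.79% had an unadjusted p under 0.05. The brightest probe set of Dcx had −0.21, with an interval of −0.85 to 0.42, and Tubb3 had −0.00083; whether these differ from the value of Map1b was not tested. Of 25 other progenitor genes 1 was named: Lin28a, an RNA-binding protein of early progenitors, differed by −0.08 ± 0.16 (SE; adjusted p = 0.878). Its entry in the authors' deposited table is a 1.78-fold decrease. That table rests on another signal summary (PLIER) with quantile normalization, so its folds and the differences here are unlike measures. Of 19 proliferation genes 2 were named, Top2a and Tyms, both below the brightness filter. Fitted without the filter, Top2a differed by 0.095 ± 0.14 and Tyms by 0.59 ± 0.41 (SE). The arrays of Top2a did not overlap between the genotypes, as for 5.01% of all tested probe sets, and those of Tyms did. Top2a was at 4.28 ± 0.068 in VEGF120 and 4.18 ± 0.015 in wild type (log2 signal, SD, n = 4 each). That is close to the lowest value this scale can give, so its lack of overlap is not read as a change. Both genes have names here through the same selection by p and fold. The authors' table lists both as increases, of 3.65-fold and 1.555-fold. Of 24 proneural genes and of 6 pluripotency genes 0 were named.

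Markers of other cells were named for 1 class of 6. Of 14 head mesenchyme and neural crest markers 4 were named, all 4 with an unadjusted p under 0.05 and higher in VEGF120, at a median difference of 0.90, and 0 passed adjustment. Over all tested probe sets 6.37% were so. But these 4 have names here because the authors' deposited table of the same series had selected them by p and fold. The count is therefore not independent evidence. The 3 with the smallest p were Prrx1 at 0.76 ± 0.16, Six2 at 0.70 ± 0.16 and Alx1 at 1.04 ± 0.24 (SE). The remaining markers, and those of endothelium, blood, surface ectoderm, macrophages, midbrain and hindbrain, are not analysed here. Of 12 forebrain markers only Sp8 was named, at 8.12 ± 0.32 in VEGF120 and 8.78 ± 0.16 in wild type. It differed by −0.66 ± 0.16 (SE; limma adjusted p = 0.459), with an unadjusted p under 0.05 and arrays that did not overlap. It comes from the same selection. With 1 marker the tissue label could be checked no further. Their part in the values of the neural genes was not tested.

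The named genes with the array pattern most like Sox2 and Tubb3 were sought among the 97 genes with a bright named probe set, by Pearson correlation over the 8 arrays with genotype means taken out. Those most like Sox2 were Defa3 (r = 0.86, rho = 0.79) and Map1b (r = 0.84, rho = 0.79). Those most like Tubb3 were Vmac (r = 0.81, rho = 0.81) and Sim2 (r = 0.81, rho = 0.67). They were picked as the highest of 97, so no p is given.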

How the data were processed

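Biotin-labelled RNA of microdissected forebrain was hybridised to Affymetrix mouse arrays. The deposited table holds a linear signal intensity for each probe set on each array, with no detection calls. The submitters' processing notes name MAS5 and Affymetrix Expression Console as what the authors used; no version of either was found in the notes, the labels or the files. Each array had been scaled to 1 common level, since its 2% trimmed mean was 250.0. All 8 arrays differed from each other, with at most 0.00443% identical values in a pair. Another deposited table lists the authors' own selection with a fold change (an unsigned ratio) and unadjusted p-values, from PLIER summaries with quantile normalization, per the file headers. Its 12 columns of per-array values match no sample label and were not used.

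Gene names of the 12 probe sets came with the list that defines them. Other names came from the authors' table, with symbols updated through RefSeq (GRCm38.p6). After the 64 controls were left out, log2(signal + 16) entered a limma fit (version 3.58.1 under R 4.3.3; lmFit, eBayes with an intensity trend) over the 27022 probe sets with a mean at or above the 40th percentile, a signal of 39.8. Benjamini-Hochberg adjustment ran over all of them. Adding 16 understates changes of dim probe sets. The fit was tested on simulated arrays. Exact permutation tests are two-sided. The brightest probe set stood for a gene in means and correlations. Plots used matplotlib 3.10.9 (Python 3.11.15). The members and gene lists were chosen with earlier results of these data known. The naming rule takes all 12 members, the 3 genes of each list with the smallest p, and the 2 named genes most like Sox2 and Tubb3.

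No label says that a replicate number marks a shared litter or day, and same-numbered arrays deviated together (r over 0.1) in 1 of 4 pairs, so the fit has no replicate block. Alternatives changed the added value, the scaling, the filter, the variance model, the block and the arrays included. With 8 arrays, their number limits the precision of every value.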

Additional observations from a re-analysis of the deposited data

Results flagged for a closer look

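An outlying array was looked for in 36 groups of 4 (12 probe sets, 3 means and 3 array measures in each genotype), and 2 groups had one; about 1.8 would come by chance, 1 in 20. Nes probe set 1449022_at read 9.54 on VEGF120 replicate 3 (log2 signal), against 10.13 to 10.24 on the other VEGF120 arrays; without that array its difference between genotypes was 0.24. Dcx probe set 1418141_at read 7.64 on wild type replicate 2, against 6.71 to 6.83 on the other wild type arrays; without that array its difference was 0.0092.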

How the results depend on the processing

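Over the 19 alternatives, 0 of the bright members had an unadjusted p under 0.05 under any, and the number of probe sets past the adjusted threshold stayed at 0 except for 1 without VEGF120 replicate 1 (0 to 1 with 1 array left out). Unadjusted, 2645 probe sets had a p under 0.05; this number ran from 1639 (without wild type replicate 3) to 3249 with 1 array left out, and was 1487 without VEGF120 replicate 3 and wild type replicate 4, a setting chosen after seeing the data. This number was 3707 after median centring, 2306 after quantile normalization and 3587 without the filter, where more probe sets were tested. With the replicate block it was 2365, and 0 passed the adjusted threshold. The block changed no call.

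Of 228 member values under alternatives 25 changed sign, all of bright members. The probe sets that changed sign had main differences from −0.21 (Dcx 1418141_at) to 0.08 (Nes 1449022_at). The bright Dcx probe set 1418139_at, at 0.29, did not change sign. Median centring gave −0.082 for Sox2, −0.038 for Nes 1449022_at and −0.079 for Hes1, by its construction. With 1 array left out the differences ranged from −0.0087 to 0.11 for Sox2, −0.15 to 0.048 for Nes 1453997_a_at, −0.086 to 0.13 for Hes1, −0.16 to 0.13 for Hes5, −0.15 to 0.012 for Notch1 1418633_at, −0.21 to 0.16 for Notch1 1418634_at, −0.15 to 0.038 for Dll1, −0.36 to 0.088 for Dcx 1418141_at and −0.20 to 0.21 for Tubb3. Without VEGF120 replicate 3 and wild type replicate 4 they were 0.092 for Nes 1453997_a_at, 0.026 for Notch1 1418633_at and 0.10 for Notch1 1418634_at. The dim Dcx probe set 1418140_at had an unadjusted p of 0.0363 after quantile normalization, 0.0349 after median centring, 0.0297 without the intensity trend, 0.0483 in the plain unpaired test and 0.0328 without VEGF120 replicate 2; without VEGF120 replicate 3 it was 0.214. The difference of the progenitor mean, 0.02, was −0.10 after median centring and −0.03 to 0.12 with 1 array left out. That of the neuron mean, −0.11, was −0.23 after median centring and −0.25 to 0.14 with 1 array left out. Neuron minus progenitor, −0.12, was 0.014 without VEGF120 replicate 3 and 0.059 without wild type replicate 2. For the remaining shifts the cause was not tested.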
